A study of Mus musculus with 3 samples.

Results

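A group of 7 receptor genes was read across the myeloid cells of mouse lung: the free fatty acid receptors Ffar2 and Ffar4, the fatty acid receptor Gpr84, the hydroxycarboxylic acid receptor Hcar2, the serotonin receptor Htr2c and the formyl peptide receptors Fpr1 and Fpr2. They are 7 of the 32285 genes in the count tables, found by symbol, and were selected on their UMI levels across myeloid cell types and libraries in earlier results of these data. Their levels are therefore a description. The data are droplet-based 3' single-cell RNA counts from 3 libraries, 1 per group, each pooled from 3 mice of 16 to 20 weeks fed chow with 625 ppm doxycycline. All 3 groups carried Ccsp-rtTA and TetO-EGFRL858R, a doxycycline-inducible mutant EGFR in airway secretory (Ccsp) cells. WT healthy mice had these transgenes alone, WT tumour mice had Ppar{gamma}fl/fl in addition, and PPARg-/- tumour mice had Ppar{gamma}fl/fl with Csf1rCre, a recombinase driven by the Csf1r promoter of macrophages and their relatives. WT healthy and WT tumour thus differ in the floxed alleles as well as in the tumour label, and WT healthy is labelled with the same transgenes. Before loading, 4 sorted populations were mixed in equal parts: CD11c+ SigF+ alveolar macrophages, CD11b+ macrophages without Ly6G, CD3+ T cells (all CD45+) and an EPCAM+ epithelium without CD45. Therefore shares of cells between these populations are set by the mixing.

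All 7 encode G protein-coupled receptors. Ffar2 responds to short-chain fatty acids, Ffar4 to long-chain unsaturated fatty acids, Gpr84 to medium-chain fatty acids and Hcar2 to beta-hydroxybutyrate and niacin. Htr2c is a serotonin receptor best known from the brain. Fpr1 and Fpr2 detect formylated peptides of bacteria and mitochondria and guide phagocytes, and Fpr2 also binds annexin A1. Alveolar macrophages depend on PPARgamma, a lipid-activated nuclear receptor, for their identity in the airspace.

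Positions are given on GRCm38. Fpr1 (chr17:17876471-17883940, minus strand) and Fpr2 (chr17:17887824-17893952, plus strand) are divergent neighbours whose start sites lie 3884 bases apart. Ffar2 lies at chr7:30818348-30823775 (minus), Ffar4 at chr19:38097071-38114263 (plus), Gpr84 at chr15:103308235-103310612 (minus), Htr2c at chrX:146962513-147197277 (plus) and Hcar2, with 1 exon, at chr5:123863570-123865499 (minus). Fpr2 overlaps Fpr3 on the same strand, and Gpr84 overlaps Gm49482, which lies on the other strand. How reads in the overlaps were counted was not checked. In the main macrophages Fpr3 had at most 1 UMI and Gm49482 at most 1 UMI per library, which does not show whether reads in the overlaps were left out. The 250 bases before the annotated start are shown for the 4 genes with the largest ratios between the macrophages of the tumour libraries, as the RefSeq table (GRCm38.p6) gives them, 5' to 3' on the strand of the gene. RefSeq windows were matched for 6 of the 7 genes and not for Hcar2. Capitals mark matches, on either strand, to AGGTCA, which nuclear receptors bind, or to TATAAA, a motif of many start sites. The match to AGGTCA lies on the other strand in both genes and is printed as its reverse complement.
Ffar2, first of its start sites, chr7:30823776-30824025, minus strand: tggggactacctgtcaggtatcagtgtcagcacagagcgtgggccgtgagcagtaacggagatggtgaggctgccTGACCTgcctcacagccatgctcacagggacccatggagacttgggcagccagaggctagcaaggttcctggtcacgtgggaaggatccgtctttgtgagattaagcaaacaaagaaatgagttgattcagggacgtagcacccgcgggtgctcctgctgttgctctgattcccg
Htr2c, chrX:146962263-146962512, plus strand: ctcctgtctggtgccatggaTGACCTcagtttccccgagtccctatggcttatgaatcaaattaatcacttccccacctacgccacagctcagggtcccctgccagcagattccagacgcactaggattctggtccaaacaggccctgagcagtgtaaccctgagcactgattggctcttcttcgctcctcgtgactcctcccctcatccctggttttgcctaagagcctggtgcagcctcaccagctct
Fpr1, chr17:17883940-17884189, minus strand: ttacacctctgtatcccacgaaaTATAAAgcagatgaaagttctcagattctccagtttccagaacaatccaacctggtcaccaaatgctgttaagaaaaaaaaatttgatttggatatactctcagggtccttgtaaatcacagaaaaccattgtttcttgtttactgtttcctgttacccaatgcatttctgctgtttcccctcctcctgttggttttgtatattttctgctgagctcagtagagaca
Fpr2, chr17:17887574-17887823, plus strand: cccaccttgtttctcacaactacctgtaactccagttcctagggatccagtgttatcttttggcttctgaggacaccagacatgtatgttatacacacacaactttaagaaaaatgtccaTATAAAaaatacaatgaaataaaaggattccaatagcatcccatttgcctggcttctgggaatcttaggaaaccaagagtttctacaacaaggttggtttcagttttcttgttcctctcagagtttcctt
AGGTCA was matched 175 bases before the first Ffar2 start, 230 bases before the Htr2c start and 234 bases before the Gpr84 start. These distances are to the RefSeq starts, which can differ from the positions above. The Gpr84 window, chr15:103310439-103310688, runs into the gene as placed above, and so does the Ffar4 window, chr19:38096829-38097078. Of the other Ffar2 start sites, AGGTCA was matched 89 bases before site 3 and 142 bases before site 4, whose windows overlap, and not before site 2. It occurs in 14% of 32851 windows of this length, and a gene with several windows has more places to match. TATAAA was matched 227 bases before the Fpr1 start and 130 bases before the Fpr2 start, and occurs in 12.4% of windows. GAGGAAG, the core of the motif of the myeloid factor PU.1, was matched only before Ffar4 among the 6 genes, 132 bases from the start, and occurs in 10.6% of windows. These are matches of letters, and no binding was measured.

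The libraries held 30454790 (WT healthy), 46148658 (WT tumour) and 44548318 (PPARg-/- tumour) UMIs, and 2881, 4272 and 4991 cells were kept, with 4 to 6 barcodes shared between any pair of libraries. Over all kept cells the female-specific RNA Xist stood at 1235 CPM (counts scaled to a total of 1e6) in WT healthy and at 0.177 and 0.305 CPM in the tumour libraries, while the Y-linked Ddx3y stood at 0.132, 81.5 and 74.4 CPM. The labels describe both sexes in about equal use, which these libraries do not show, so sex and the healthy label cannot be told apart, and Htr2c is X-linked. Heat-shock and immediate-early genes, a sign of stress in dissociation, differed too: summed over 15 genes they stood at 5502, 2777 and 3183 CPM in the main macrophages. Their part in the differences below was not tested. Pparg itself stood at 197, 173 and 376 CPM in those cells, and a 3' count checks neither the deletion nor its absence. With 1 library per group there is no replicate and no test between groups. Intervals are exact, at 95%, and cover counting error only, and a gene is called higher or lower where the ratio of CPM was at least 1.5-fold, its interval excluded 1 and both libraries together held at least 20 UMIs.

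The largest non-cycling macrophage cluster of each library is called its main macrophages. Each of these clusters came mostly from 1 library (836 of 845, 972 of 1066 and 1155 of 1168 cells), whereas cycling and interstitial macrophages formed clusters with cells of all 3 libraries. In WT healthy this was cluster 10 (836 cells), with 10 of 10 alveolar and 0 of 12 interstitial macrophage markers raised, and in WT tumour cluster 11 (972 cells), with 9 and 0. In PPARg-/- tumour it was cluster 21 (1155 cells), with 4 alveolar and 6 interstitial markers raised. The marker rule named cluster 21 interstitial macrophages, as it did cluster 18. Below, cluster 21 is read as main macrophages, and interstitial macrophages means cluster 18 alone. The alveolar marker Marco, a scavenger receptor, stood at 542, 328 and 0.255 CPM and the interstitial marker C1qa, a complement subunit, at 0.275, 3.17 and 1887 CPM. The alveolar label therefore holds for the first pair of clusters and not for the third, and ratios between them set clusters of unlike markers side by side.

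Most transcripts of the 7 genes lay in myeloid cells: 97.6% to 100% of their UMIs in WT healthy, 79% (Ffar4) to 99.2% in WT tumour and 92.7% (Ffar2) to 99.7% in PPARg-/- tumour. In T cells, read as the background class, each gene stood at 4.05 CPM or less, at a median of 3762.5, 3027 and 2693 UMIs per cell against 12694, 14782 and 16469 in the main macrophages. A main macrophage held transcripts of a median of 4 of the 7 genes in WT healthy and in WT tumour and of 1 in PPARg-/- tumour.

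**Figure D1:**
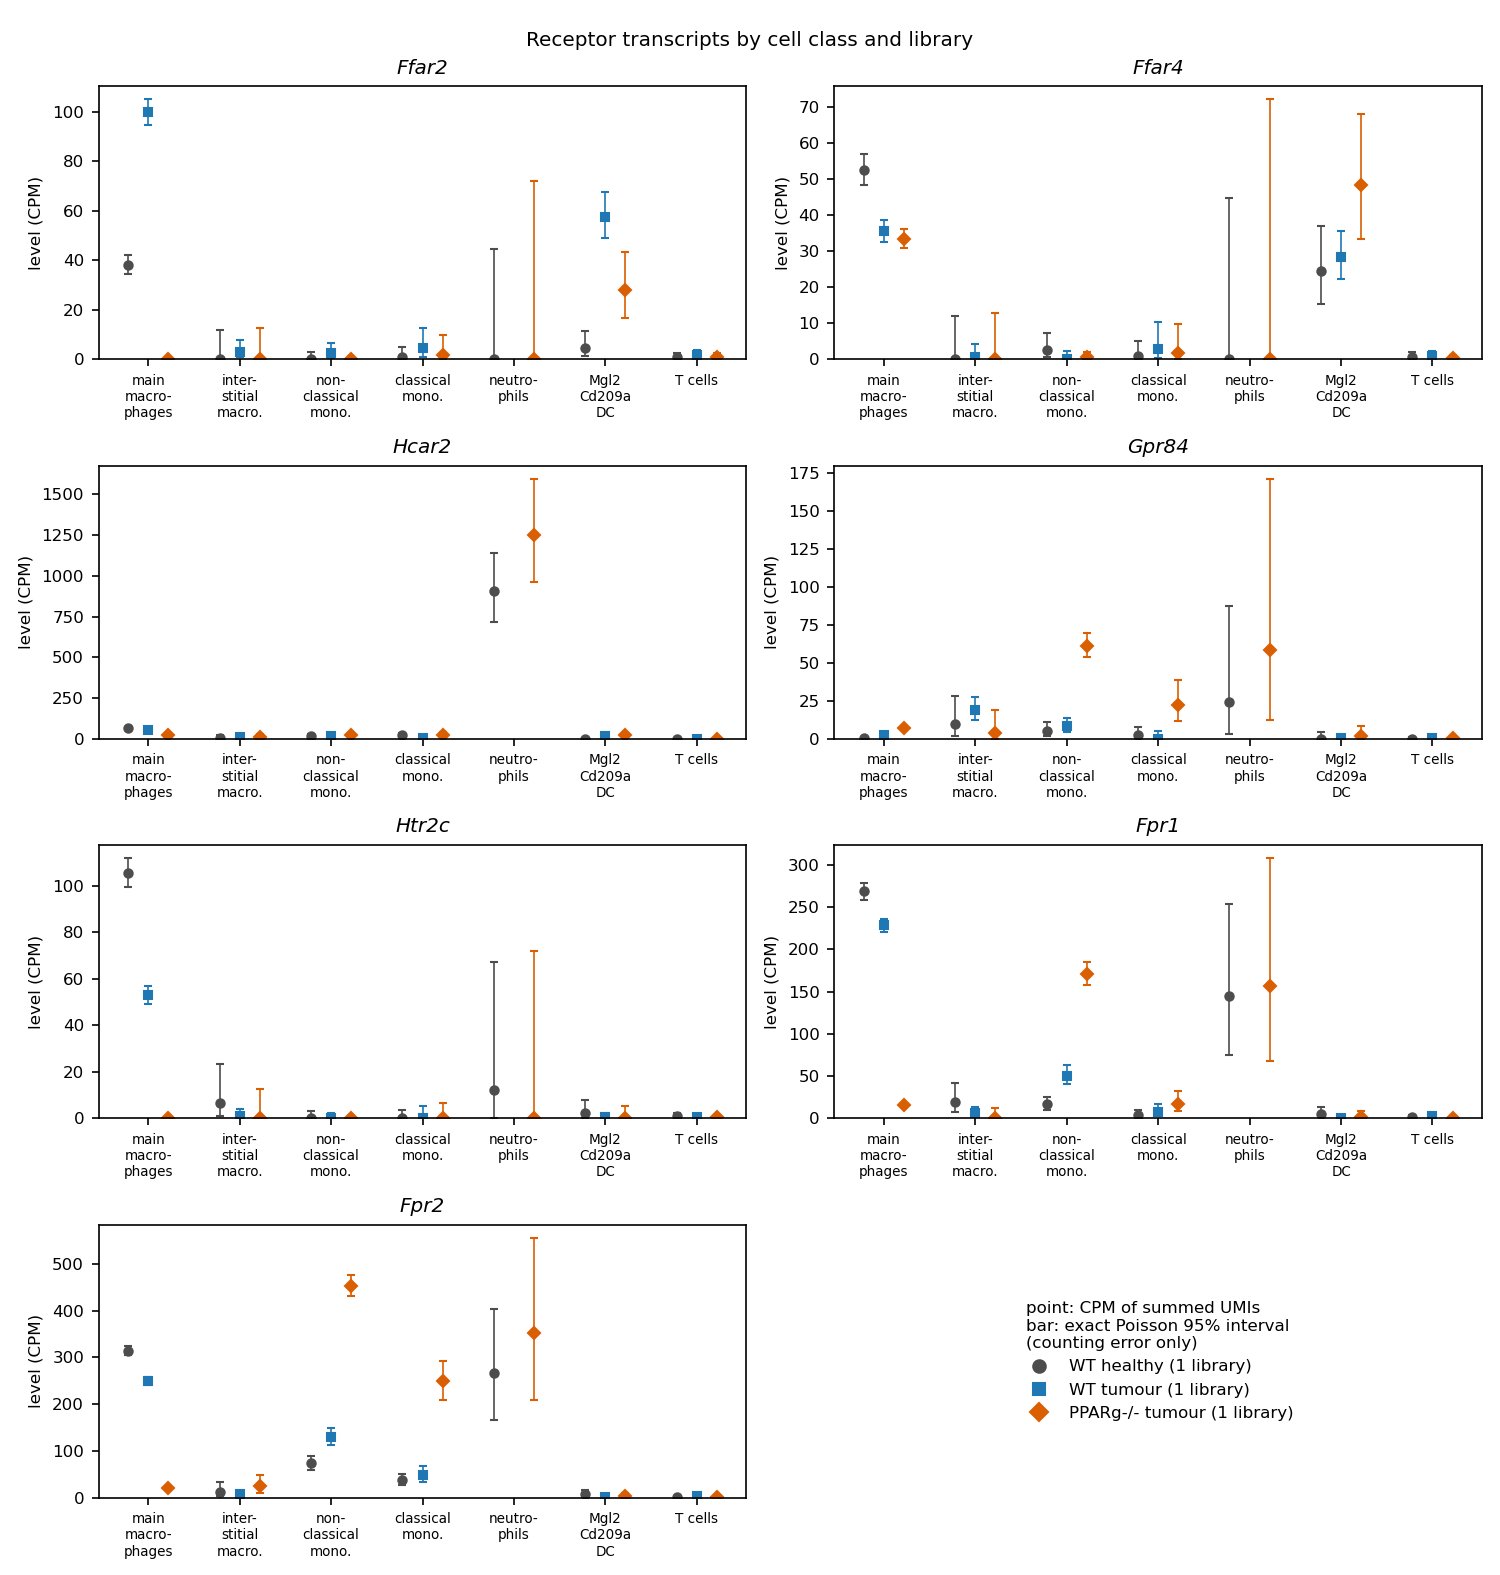
Level of each receptor gene (CPM, linear axis with its own scale in each panel) in 7 cell classes, 1 point per library with its exact Poisson 95% interval. Ffar2 and Htr2c are high in the main macrophages of WT healthy and WT tumour and near 0 in those of PPARg-/- tumour, Hcar2 is highest in neutrophils, and Fpr2 in nonclassical monocytes reaches 453 CPM in PPARg-/- tumour. Neutrophils of WT tumour are not drawn because fewer than 20 cells were found.

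Ffar2, the short-chain fatty acid receptor, stood at 38.2 CPM (34.7 to 42.1) in the main macrophages of WT healthy, 99.9 CPM (94.9 to 105) in WT tumour and 0.255 CPM (0.0828 to 0.595) in PPARg-/- tumour. The last value is 5 UMIs in 3 of 1155 cells, against 1452 UMIs in 531 of 972 cells of WT tumour. The 3 intervals do not overlap. The log2 ratio was 1.39 (1.23 to 1.55) for WT tumour over WT healthy and -8.61 (-10.2 to -7.39) for PPARg-/- tumour over WT tumour. Outside these cells, cycling macrophages (45, 101 and 23 cells) held Ffar2 at 47.1, 77.1 and 27.3 CPM, the last on 10 UMIs. Those 23 cells held C1qa at 1299 CPM and Marco at 24.6 CPM. The cycling cells of WT tumour held them at 3.40 and 381 CPM, so cells of unlike markers are set side by side here too. A small WT healthy cluster of 54 cells with all 10 alveolar markers raised held it at 25.3 CPM. Dendritic cells that express Mgl2 and Cd209a (85, 237 and 76 cells) held it at 4.44, 57.6 and 27.9 CPM. Monocytes and the interstitial macrophages of cluster 18 held 4 UMIs of it or fewer in any library.

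Ffar4, the long-chain fatty acid receptor, stood at 52.4 CPM (48.2 to 56.9), 35.4 CPM (32.5 to 38.6) and 33.4 CPM (30.9 to 36.0) in the main macrophages. The tumour libraries had overlapping intervals, and the log2 ratio between them was -0.09 (-0.26 to 0.08). Ffar4 is the only one of the 7 that was called neither higher nor lower between those macrophages. WT tumour over WT healthy it was lower by less than the fold used, at -0.57 (-0.74 to -0.39). The Mgl2 and Cd209a dendritic cells held it at 24.4, 28.4 and 48.4 CPM, and monocytes at 2.89 CPM or less. The interstitial macrophages of cluster 18 had 1 UMI of it or fewer in any library, unlike cluster 21, which the marker rule also named interstitial.

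Hcar2, the hydroxybutyrate and niacin receptor, stood at 67.7 CPM (62.9 to 72.7), 50.6 CPM (47.0 to 54.4) and 20.8 CPM (18.8 to 22.9) in the main macrophages. The log2 ratios were -0.42 (-0.57 to -0.27) and -1.28 (-1.46 to -1.10). Its highest level was in neutrophils, a cluster of 21 cells in WT healthy and 26 in PPARg-/- tumour, at 907 CPM (714 to 1137) and 1251 CPM (964 to 1598). These cells had passed a sort against Ly6G, and some held basophil markers. Without cells of at least 3 such UMIs the Hcar2 level was 986 and 1338 CPM. A small cluster of 54 cells of WT healthy with all 10 alveolar markers raised, cluster 12, held Hcar2 at 161 CPM (135 to 191). Nonclassical monocytes held it at 17.3, 18.1 and 20.7 CPM, with overlapping intervals. Interstitial macrophages (38, 174 and 51 cells) held it at 6.44, 8.97 and 10.3 CPM, on 2, 12 and 3 UMIs.

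Gpr84, the medium-chain fatty acid receptor, was sparse in the main macrophages, at 0.733, 2.13 and 6.84 CPM (8, 31 and 134 UMIs). It reached 61.3 CPM (53.5 to 69.9) in the nonclassical monocytes of PPARg-/- tumour, against 4.94 and 8.09 CPM in those of WT healthy and WT tumour. Interstitial macrophages held it at 9.66, 18.7 and 3.44 CPM on 3, 25 and 1 UMIs, and classical monocytes of PPARg-/- tumour at 22.5 CPM (12 to 38.4). The neutrophils of WT healthy and PPARg-/- tumour held it at 24.2 CPM (2.93 to 87.4) and 58.6 CPM (12.1 to 171). These wide intervals rest on 2 and 3 UMIs.

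Htr2c, the serotonin receptor, stood at 106 CPM (99.7 to 112) in the main macrophages of WT healthy and 53.0 CPM (49.3 to 56.9) in those of WT tumour. A UMI of it was seen in 461 of 836 and 400 of 972 cells. In the 1155 main macrophages of PPARg-/- tumour there were 0 UMIs among 19601792, for which the exact interval reaches 0.188 CPM. The floor of 3 counts, used where a ratio needs a value, is 0.153 CPM in this class. The exact interval of the log2 ratio to WT tumour, which also takes in the counting error of that library, lay below -8.13. Nonclassical and classical monocytes held 0 UMIs of Htr2c in every library. Cycling macrophages (45, 101 and 23 cells) held it at 100, 48.7 and 27.3 CPM, the last on 10 UMIs in cells of unlike markers. The Mgl2 and Cd209a dendritic cells and the interstitial macrophages each had 2 UMIs of it or fewer in any library.

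Fpr1 stood at 269 CPM (259 to 278), 228 CPM (221 to 236) and 15.5 CPM (13.8 to 17.3) in the main macrophages, and Fpr2 at 314 CPM (304 to 325), 249 CPM (241 to 257) and 21.3 CPM (19.3 to 23.5). The log2 ratios of PPARg-/- tumour over WT tumour were -3.89 (-4.06 to -3.72) for Fpr1 and -3.54 (-3.69 to -3.40) for Fpr2. In WT healthy 82.1% of these cells held a UMI of both genes, in WT tumour 76.2% and in PPARg-/- tumour 7.36%. In nonclassical monocytes the order of the libraries was the opposite. There Fpr1 stood at 16.5 CPM (10.1 to 25.4), 50.4 CPM (40.0 to 62.7) and 171 CPM (158 to 185), and Fpr2 at 73.3 CPM (58.9 to 90.2), 130 CPM (113 to 149) and 453 CPM (431 to 475). Both genes were found in 3.77%, 6.29% and 26.2% of these cells. Neutrophils of WT healthy and PPARg-/- tumour held Fpr2 at 266 CPM (167 to 403) and 352 CPM (209 to 556), on 22 and 18 UMIs, and Fpr1 at 145 and 156 CPM, on 12 and 8 UMIs. Cycling macrophages held Fpr2 at 221, 218 and 82.0 CPM and Fpr1 at 150, 178 and 60.2 CPM. In PPARg-/- tumour these rest on 30 and 22 UMIs in 23 cells of unlike markers. Interstitial macrophages (38, 174 and 51 cells) held Fpr1 at 19.3, 6.72 and 0 CPM and Fpr2 at 12.9, 7.47 and 24.1 CPM. Each of these values rests on 10 UMIs or fewer. In the Mgl2 and Cd209a dendritic cells Fpr1 and Fpr2 had 7 UMIs or fewer in any library. In classical monocytes Fpr2 stood at 37.9, 49.2 and 249 CPM and Fpr1 at 3.61, 7.23 and 17.3 CPM.

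**Figure D2:**
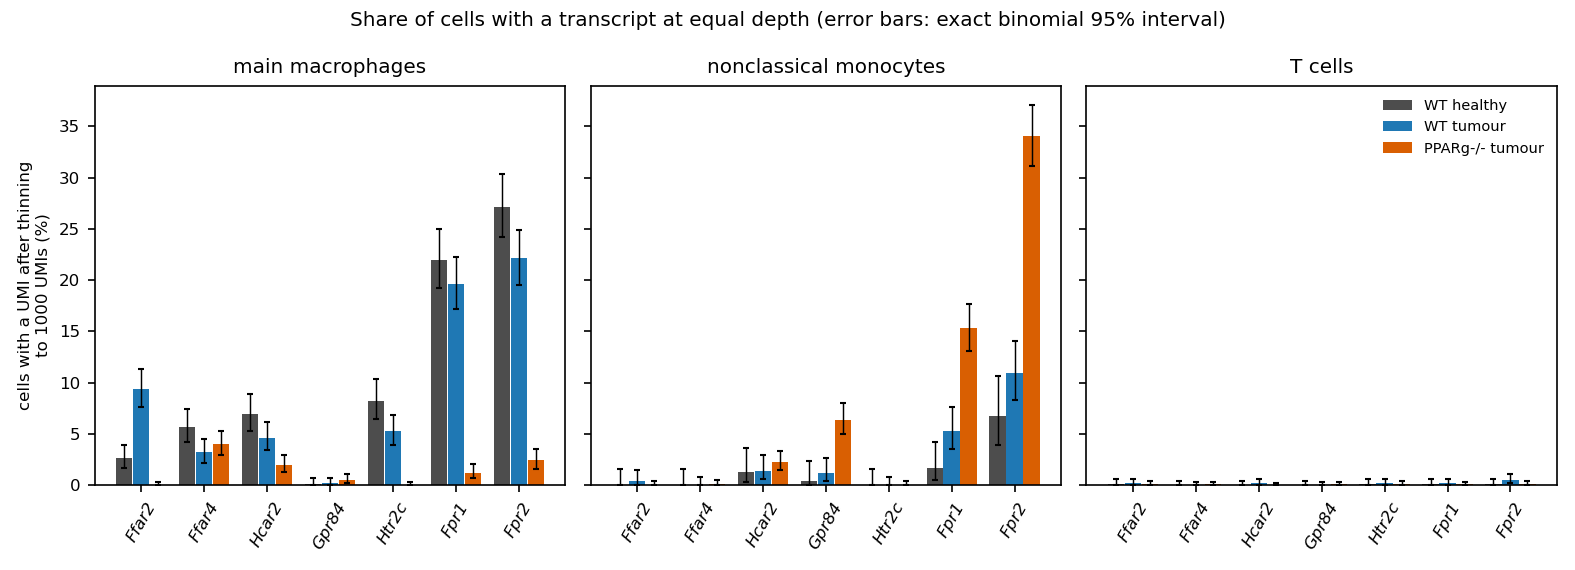
Share of cells (%) with at least 1 UMI of each gene after every cell was thinned to 1000 UMIs, by library, in main macrophages, nonclassical monocytes and T cells, with exact binomial 95% intervals. Fpr2 was found in 22.1% of main macrophages of WT tumour and 2.42% of those of PPARg-/- tumour, but in 10.95% and 34.1% of their nonclassical monocytes.

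At equal depth the shares of Fpr2 kept the order of its levels. After thinning to 1000 UMIs, Fpr2 was found in 27.2%, 22.1% and 2.42% of main macrophages and in 6.69%, 10.95% and 34.1% of nonclassical monocytes. Before thinning the shares were 90.0%, 84.0% and 21.6% and then 22.6%, 26.2% and 63.2%. In T cells the thinned share of Fpr2 was 0.513% or less.

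Comparing WT tumour with WT healthy asks how the cells of tumour-bearing lungs differ from those of lungs labelled healthy. In the main macrophages 2 of 7 receptor genes were higher (Ffar2 and Gpr84), where 7.45% of 11484 genes were, and 1 was lower (Htr2c, 1.99-fold, log2 interval -1.13 to -0.86), where 15.3% were. Gpr84 rests on 31 and 8 UMIs (1.54, 0.39 to 2.87). In nonclassical monocytes 2 of 3 measured genes were higher, Fpr1 (1.61, 0.89 to 2.40) and Fpr2 (0.83, 0.46 to 1.20), where 5.02% of 8146 genes were higher and 5.57% lower. In classical monocytes (159, 133 and 110 cells) 1 of 2 measured genes was lower, Hcar2 on 5 and 24 UMIs, where 5.49% of 7179 genes were lower and 3.77% higher. In the Mgl2 and Cd209a dendritic cells 2 of 3 measured genes were higher, Ffar2 (3.70, 2.31 to 5.59) and Hcar2 on 45 UMIs and 1 UMI (3.94, 1.39 to 9.28), where 7.23% of 9448 genes were higher and 8.02% lower. With cells thinned to 1000 UMIs the calls of Gpr84 in main macrophages, of Hcar2 in classical monocytes and of both genes in dendritic cells were lost, and in cluster 0, 1 of 2 clusters of nonclassical monocytes, that of Fpr2 was. As the genes were chosen with such values known, nothing is read from these counts.

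Comparing PPARg-/- tumour with WT tumour asks what goes with Csf1rCre in mice with floxed alleles, where loss of PPARgamma itself was not checked. In the main macrophages 5 of 7 receptor genes were lower (Ffar2, Htr2c, Fpr1, Fpr2 and Hcar2), where 18.2% of 12071 genes were, and Gpr84 was higher (1.68, 1.11 to 2.29), where 15% were. In nonclassical monocytes 3 of 4 measured genes were higher, Gpr84 (2.92, 2.12 to 3.85), Fpr1 (1.76, 1.43 to 2.12) and Fpr2 (1.80, 1.59 to 2.01), where 4.51% of 9205 genes were higher and 4.52% lower. In classical monocytes Fpr2, the 1 gene measured, was higher (2.34, 1.79 to 2.92), where 4.24% of 6273 genes were higher and 3.27% lower. In the dendritic cells Ffar4 was higher (0.77, 0.13 to 1.38) and Ffar2 lower (-1.05, -1.82 to -0.36) of 3 measured, where 2.76% of 9251 genes were higher and 4.05% lower. For 4 of the 5 genes the lower value in macrophages depends on taking cluster 21 as the counterpart of cluster 11: over clusters with at least 5 alveolar markers (81 cells of PPARg-/- tumour) the log2 ratios were 0.33 for Ffar2, 0.34 for Htr2c, 0.066 for Fpr1 and 0.084 for Fpr2. Hcar2 was lower there too (-0.85, -1.44 to -0.31). With cells thinned to 1000 UMIs the higher call of Gpr84 in main macrophages and both calls in dendritic cells were lost. The 2 comparisons share the WT tumour library.

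**Figure D3:**
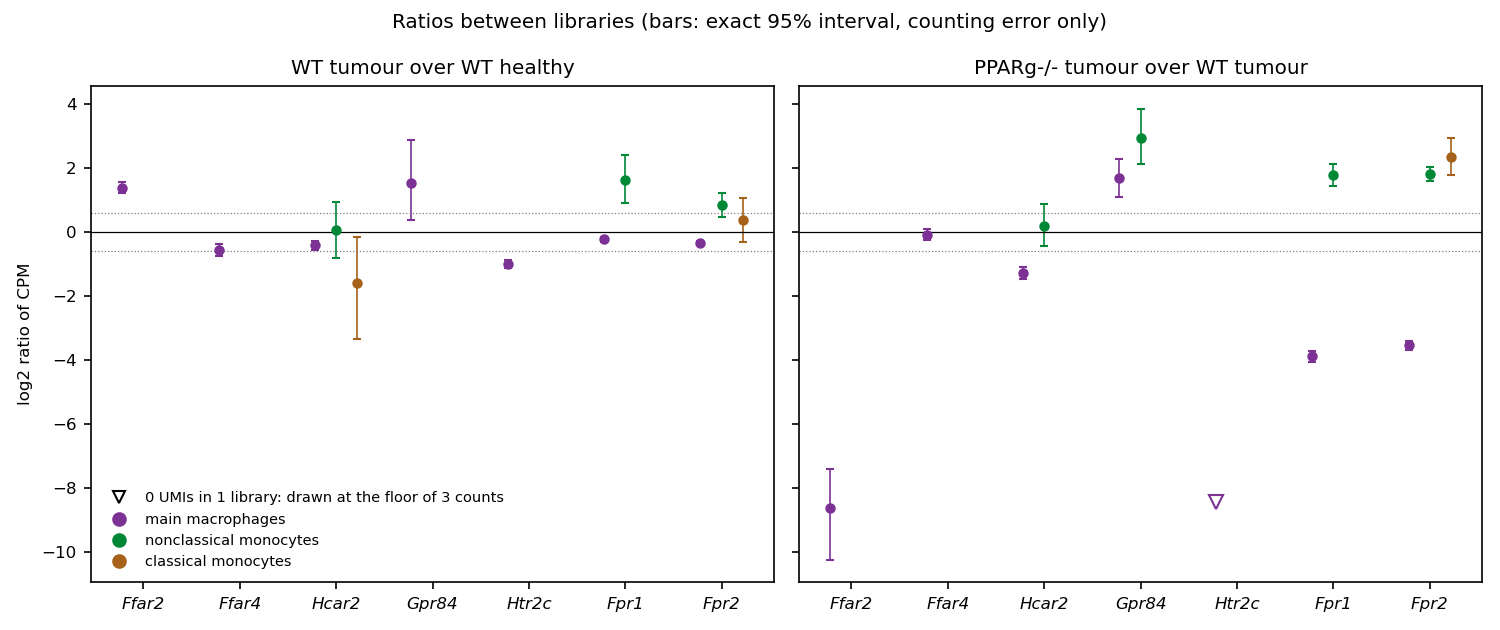
Log2 ratio of CPM for WT tumour over WT healthy (left) and PPARg-/- tumour over WT tumour (right) in main macrophages, nonclassical monocytes and classical monocytes, with exact 95% intervals; dotted lines mark 1.5-fold and the open triangle the ratio at a floor of 3 counts. On the right Fpr1 and Fpr2 lie below 0 in main macrophages (-3.89 and -3.54) and above 0 in nonclassical monocytes (1.76 and 1.80), and Gpr84 lies above 0 in both.

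Clusters 0 and 1 made up the nonclassical monocytes. WT healthy had 196 of its 239 in cluster 0, whereas cluster 1 held 275 of 493 for WT tumour and 720 of 1021 for PPARg-/- tumour. Within cluster 0 Fpr2 stood at 79.2, 114 and 392 CPM and within cluster 1 at 28.3, 152 and 492 CPM, so the order of the libraries was the same in each. Neutrophil markers summed to 127, 138 and 147 CPM over 14 genes in these monocytes, and Retnlg, Mmp9, Ly6g, Camp and Ngp were at 0 in all 3 libraries. The 15 stress genes summed to 12626, 6872 and 7603 CPM there. Free RNA of Fpr2, read in barcodes of 10 to 100 UMIs, stood at 163, 132 and 44.9 CPM. The part of neutrophil RNA, of free RNA and of the stress genes in the receptor values was not tested. Of 13 measured genes of an inflammatory response list, 10 were higher and 0 lower in the monocytes of PPARg-/- tumour over WT tumour. Of all 9205 genes measured there, 4.51% were higher and 4.52% lower. The median log2 ratio of the list was 0.80 (0.0031 over all genes). Summed over the list, WT healthy had 2630 CPM, WT tumour 2274 CPM and PPARg-/- tumour 3809 CPM. The part of the inflammatory genes was not tested either.

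A set of 79 cells of PPARg-/- tumour lay in cluster 11, the main macrophages of WT tumour, and not in cluster 21. The receptors were left out of the genes used for clustering, though other genes that vary with them were not. In these cells Ffar2 stood at 129 CPM (107 to 153), Htr2c at 64.4 CPM (49.6 to 82.2), Fpr1 at 244 CPM (215 to 277) and Fpr2 at 271 CPM (239 to 305). Each of the 4 was within 1.5-fold of the WT tumour main macrophages. Hcar2, at 29.2 CPM (19.5 to 41.9), was lower than there (log2 ratio -0.79, -1.38 to -0.26). Marco stood at 144 CPM, C1qa at 10.1 CPM and Pparg at 284 CPM in the set, and 1 of its barcodes was also found in another library. Whether these cells kept an intact Pparg gene was not tested. The library thus held macrophages with and without Ffar2 and Htr2c, and the main cluster outnumbered the set.

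**Figure D4:**
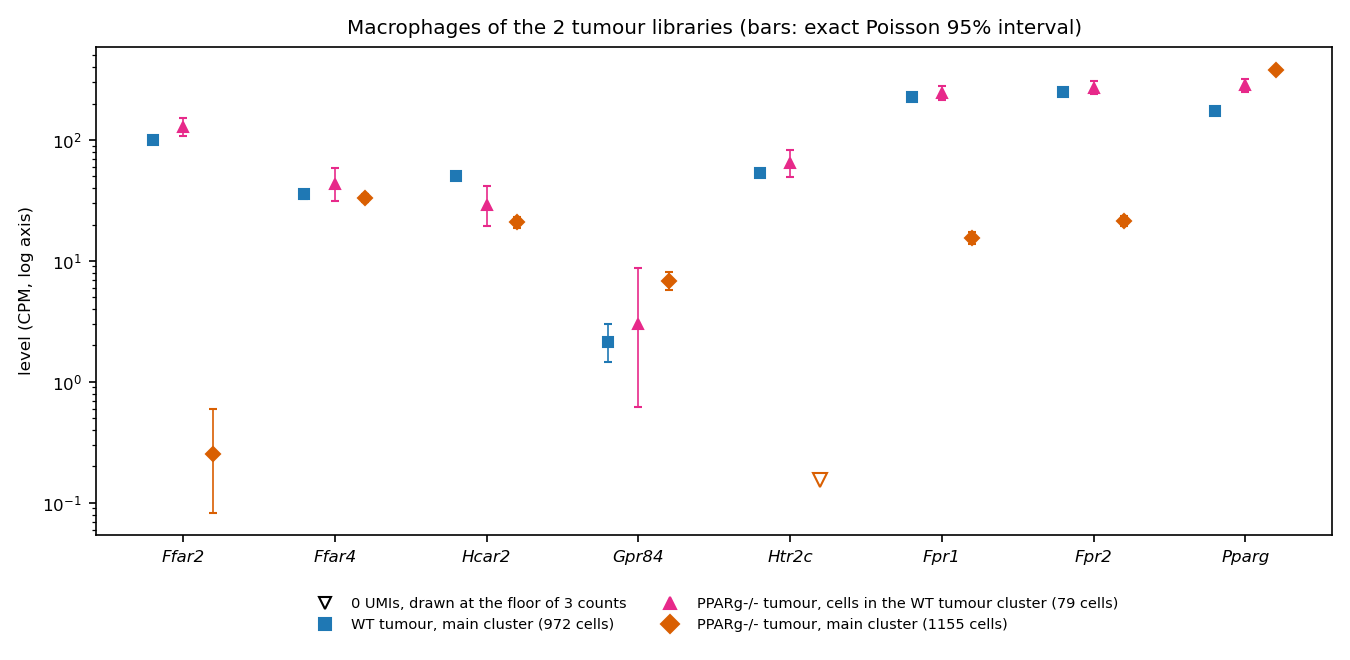
Level (CPM, log axis) of the 7 receptor genes and Pparg in the main macrophages of WT tumour, in the 79 cells of PPARg-/- tumour that cluster with them and in the main macrophages of PPARg-/- tumour, with exact Poisson 95% intervals. For Ffar2, Htr2c, Fpr1 and Fpr2 the 79 cells lie beside the WT tumour cluster, whereas the Ffar4 intervals of all 3 overlap.

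Other genes of the same pathways, from lists chosen with earlier results known, did not share 1 direction in the main macrophages of PPARg-/- tumour over WT tumour. Of 20 other metabolite and nucleotide receptors 14 were measured, 7 were higher and 3 lower; their median log2 ratio was 0.92, against -0.13 over all genes. Among the higher were Gpr183, an oxysterol receptor (6.22 against 0.275 CPM, log2 ratio 4.50), and Gpr35 (33.6 against 3.85 CPM, 3.12). Of 19 other serotonin genes 5 were measured and 2 were higher, Maoa, which degrades serotonin (87.7 against 36.0 CPM, 1.28), and the receptor Htr2b, with 62 UMIs against 0 (exact interval of the log2 ratio above 3.60). Of 17 other chemoattractant receptors and annexin A1, 11 were measured, 5 were higher and 3 lower (median 0.33). Cmklr1, the chemerin receptor, stood at 31.8 against 0.207 CPM on 624 and 3 UMIs (7.27, 5.71 to 9.55), the complement receptor C3ar1 at 152 against 3.10 CPM (5.62) and the platelet-activating factor receptor Ptafr at 65.0 against 3.37 CPM (4.27). Of 28 G protein signalling genes 27 were measured, 6 were higher and 4 lower, with a median of -0.06, beside 15% higher and 18.2% lower of all genes; Rgs10, a regulator of G protein signalling, stood at 160 against 30.4 CPM. In WT tumour over WT healthy these lists gave 3 higher and 4 lower of 11 metabolite receptors, 1 and 1 of 2 serotonin genes, 2 and 3 of 10 chemoattractant genes and 1 and 3 of 26 signalling genes, beside 7.45% higher and 15.3% lower of all genes. Of 13 measured inflammatory genes 0 were higher and 8 lower in that comparison, and 7 higher and 3 lower in PPARg-/- tumour over WT tumour. Of the 15 stress genes 0 were higher and 11 lower, and then 4 higher and 1 lower. The serotonin transporter Slc6a4 stood at 67.5 CPM in WT healthy and 41.6 CPM in WT tumour (-0.70).

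The genes most like each receptor were sought over 30 units of cell class and library with at least 50 cells, by Pearson's r of log2(CPM + 1) among 11581 genes. Units of 1 library share their depth and free RNA, and the values are descriptions. Htr2c was most like Lipf (0.98), Vstm2a (0.96) and Pnpla5 (0.94), and Fpr1 most like Ear1 (0.92), Ear2 (0.91) and Olr1 (0.89). Ffar2 was most like Gpr55 (0.83), Cyb561a3 (0.83) and Best1 (0.80), Ffar4 most like S100a11 (0.89), Plet1 (0.87) and Cox6b2 (0.87), and Gpr84 most like Clec4d (0.80), Trem3 (0.74) and Tnip1 (0.74). Fpr2 was most like Msrb1 (0.90), Pygl (0.90) and Mpp1 (0.89), and Hcar2 most like Pstpip2 (0.93), Tlr2 (0.93) and Alox5 (0.90). Among the receptors themselves Fpr1 and Fpr2 had an r of 0.89, and Ffar2 and Gpr84 one of -0.06.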

How the data were processed

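The authors deposited raw UMI counts per gene and barcode, with no cell filter, for 1 pooled library per group. Cell Ranger 6.0.1, Seurat 4.0.1 and mm10 were used per the submitters' processing notes, and the matrix headers name Cell Ranger 4; annotation: not given in the sources used here. Barcodes with at least 1000 UMIs, at least 500 genes and at most 10% mitochondrial UMIs were kept (2947, 4374 and 5137), and Scrublet in scanpy 1.11.5 removed 66, 102 and 146 doublets. Leiden clusters (resolution 1, 30 components, 15 neighbours) used 2000 variable genes without the 7 receptors, Pparg and sex-linked genes. Clusters were named by 24 marker sets, with at least 3 markers raised 4-fold in 10% of cells; the rule for main macrophages was set after the clusters were seen. UMIs were summed per class and library (levels from 20 cells, ratios from 50) and given as CPM with exact Poisson intervals and conditional binomial (Clopper-Pearson) ratio intervals. The ratio intervals were computed on simulated Poisson counts too. Those counts follow the model that the intervals assume, so this checks the code and not the spread between cells. Free RNA was read from barcodes of 10 to 100 UMIs. By the rule for named genes every receptor could be named in every class (the text gives most myeloid classes, T cells and, for Ffar4, epithelial cells); of other lists the 3 largest called differences at most, and the 3 genes most like each receptor among those with at least 200 UMIs; a gene that this rule would name is not reported here. Coordinates come from GENCODE M21 on GRCm38. Members and lists were chosen with earlier results of these data known. Settings varied are given in the closing section.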

Additional observations from a re-analysis of the deposited data

Results flagged for a closer look

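Fpr1 and Fpr2 differed in opposite directions in 2 cell classes of PPARg-/- tumour over WT tumour. The log2 ratio of Fpr1 was -3.89 in main macrophages and 1.76 in nonclassical monocytes, and that of Fpr2 was -3.54 and 1.80. With 1 library per group the difference between the classes was not tested.

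Ffar4 was also found outside the myeloid cells, among them in a cluster named AT1 cells, after the flat cells of the alveolar wall. This cluster had 8 AT1 markers raised, but also 6 markers of AT2 cells, another alveolar epithelial type. Krt8, Krt18 and Scgb1a1 were among its top genes, and 7, 149 and 39 of its cells came from the 3 libraries. It may therefore not be ordinary AT1 cells. In WT tumour Ffar4 stood there at 81.0 CPM (67.7 to 96.3), on 129 UMIs in 46 of 149 cells, above its level of 0.899 CPM in T cells and 23.5 CPM in free RNA of that library. In PPARg-/- tumour the 39 cells of this cluster held 8 UMIs of Ffar4 (27.8 CPM, 12 to 54.8). Cells that stayed unnamed held it at 48.2 CPM (29.0 to 75.2) on 19 UMIs in WT tumour. The unnamed cells of PPARg-/- tumour held it at 39.9 CPM (21.2 to 68.2) on 13 UMIs. Most of them were cluster 17, with the secretory genes Scgb1a1 and Scgb3a2 among its top genes. It had 7 markers of ciliated cells and 4 of secretory club cells raised. Which of these cell types held Ffar4 was not tested.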

How the results depend on the processing

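Of 356 recomputed ratios of the receptor genes over 16 settings, 293 stayed within the counting interval of the value reported, 58 moved past it and 5 turned direction. Of 182 recomputed counts of receptor genes called, 155 stayed within 1.5 times.

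Of the 5 that turned, 4 did so with the choice of macrophages. With all non-cycling clusters of at least 5 alveolar markers, which leaves out cluster 21, the main macrophages of PPARg-/- tumour over WT tumour gave log2 ratios of 0.33 for Ffar2, 0.34 for Htr2c, 0.066 for Fpr1 and 0.084 for Fpr2, with 0 genes higher and 1 lower, and WT tumour over WT healthy gave 1 higher. With all macrophages and monocytes together 2 were lower in WT tumour over WT healthy. With each library clustered alone, or with doublets kept, 1 was higher there. For WT tumour over WT healthy, main macrophages had 1 higher and 3 lower at a mitochondrial limit of 5%, 2 lower at resolution 2, 1 higher and 2 lower after thinning to 1000 UMIs, and 0 lower at a fold of 2. Nonclassical monocytes had 1 higher with UMIs per cell, at a fold of 2 and in cluster 0 alone. Classical monocytes had 0 lower at a minimum of 2000 UMIs per cell and after thinning. Dendritic cells had 1 higher at the limit of 5% and 0 after thinning. For PPARg-/- tumour over WT tumour, main macrophages had 0 higher after thinning. Classical monocytes had 2 higher at resolution 2 and 3 at a minimum of 10 UMIs. Dendritic cells had 0 higher at the limit of 5%, with UMIs per cell, after thinning and at a fold of 2, and 0 lower after thinning, where Ffar4 turned to a log2 ratio of -0.53. The cause was not tested, except that thinning leaves fewer UMIs. The settings of cluster 0 or 1 alone and of neutrophils without basophil markers were chosen after seeing the data. No paired analysis was possible because each group has 1 library. In main macrophages Gpr84 rests on 8 to 134 UMIs, and neutrophils on 21 and 26 cells.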
